A study of Homo sapiens with 36 samples.

Results

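The comparison described here set the 6 MEIS1-OE libraries directly against the 6 MEIS2-OE libraries of human neural stem cells (hNSC), which are 12 of the 36 RNA-seq libraries of the series. The libraries were chosen by their treatment label, and the 18320 of 28516 listed genes with at least 10 counts summed over the 12 libraries were tested. All cells came from the same commercial hNSC line, were infected with lentivirus and were harvested after 48 h. MEIS1-OE cells carried the CRISPR-activation system with a guide for MEIS1, and MEIS2-OE cells carried the same system with a guide for MEIS2. The system consists of a Cas9 that does not cut, fused to the activator VP64, and of the MPH helper proteins that the guide recruits through MS2 loops, so both groups shared every component except the guide. The ctrl-OE group (6 libraries) received a non-targeting guide with that system, and its levels are given only to show on which side of the untargeted state each group lay. MEIS1-KO and MEIS2-KO (6 libraries each) received cutting Cas9 with guides for 1 of the genes. The study's methods list 1 activation guide for each gene, so the effect of the paralog and any other effect of its guide cannot be told apart, and sites elsewhere in the genome that resemble the guides were not searched here.

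MEIS1 and MEIS2 are paralogous homeodomain transcription factors of the TALE class, which bind DNA at a short TGACAG core, often together with PBX proteins and, in other tissues, with HOX proteins. Their homeodomains are near identical, and both genes are active in the developing forebrain, where they are known for roles in neuronal differentiation. Comparing the activation of one paralog directly with that of the other shows which genes respond differently to them, without a control group whose spread enters both sides.

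The cells carried the markers of neural stem cells. Mean levels, in CPM (counts scaled to the depth of the library by TMM normalization), were 117 and 125 for SOX2, 1067 and 948 for NES, the intermediate filament nestin, and 19.9 and 20 for PAX6 in MEIS1-OE and MEIS2-OE. The forebrain factors EMX2 and OTX2 and the stem cell receptor NR2E1 were below 0.1 CPM in both groups, as was the Notch target HES5. Of 28 HOX genes, 26 were below 0.1 CPM in each group. Of the 7 microglia and blood cell markers, PTPRC, CX3CR1, P2RY12 and HBB were below 0.1 CPM in both groups, while CD68, a lysosomal protein of macrophages, averaged 10.6 and 8.51 CPM and AIF1 1.82 and 1.41 CPM. Their sum ranged from 9.35 to 14.3 CPM in MEIS1-OE and from 8.91 to 11.1 CPM in MEIS2-OE. The summed level of the 10 mesenchymal markers ranged from 422 to 528 CPM in MEIS1-OE and from 409 to 523 CPM in MEIS2-OE, that of the 7 endothelial markers from 154 to 223 and from 184 to 228 CPM, and that of the 6 pluripotency markers, carried by LIN28A and DPPA4, from 405 to 454 and from 380 to 482 CPM. No tested marker of the astrocyte, oligodendrocyte, mesenchymal, endothelial, microglial, pluripotent or HOX lists was called by edgeR or DESeq2. By edgeR, 3 of these tested markers were higher in MEIS1-OE and 2 higher in MEIS2-OE at an unadjusted p under 0.05. Only the mesenchymal marker PDGFRB also had an adjusted p under 0.05, and it was not called because its change was under the fold threshold. PDGFRB averaged 107.1 CPM in MEIS1-OE and 81.18 CPM in MEIS2-OE (log2 fold change 0.399 ± 0.065, edgeR adjusted p = 0.000603). In bulk RNA, fewer cells of a type and less RNA per cell cannot be told apart.

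The total count of the 12 libraries lay between 17872897 and 21667053. The library of MEIS1-OE replicate 3 stood apart from the others of its group. Its expression deviated with GC content by -0.234 log2 units per 10 percentage points, against 0.057 to 0.132 in the other MEIS1-OE libraries and -0.161 to 0.069 in MEIS2-OE, so counts are also given without it. Nothing in the labels says whether the replicates were separate cultures, and p-values then measure only the spread between these libraries.

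The targeted genes checked the labels. MEIS1 (chr2:66660584-66801001 on GRCh37, plus strand) ranged from 303 to 338 CPM in MEIS1-OE, with a median of 327, and from 16.2 to 19.8 CPM in MEIS2-OE, with a median of 17.4. Its log2 fold change of MEIS1-OE over MEIS2-OE was 4.2 ± 0.06 (SE; quasi-likelihood test of edgeR, with p adjusted after Benjamini and Hochberg, adjusted p = 1.5e-18). The MEIS2 gene (chr15:37181405-37393500, minus strand) ranged from 21.9 to 26.8 CPM in MEIS1-OE, with a median of 22.6, and from 829 to 887 CPM in MEIS2-OE, with a median of 860. Its log2 fold change was -5.21 ± 0.05 (edgeR, adjusted p = 3.8e-20). Each gene was high in every library that carried its guide, and no library of the other group came near. In ctrl-OE, MEIS1 ranged from 16.4 to 19.4 CPM and MEIS2 from 21.4 to 25.2 CPM, so that each paralog lay near its untargeted level where the other was activated. The activated MEIS2 level was also the higher one: the mean of 859 ± 19.1 CPM (SD, n = 6) for MEIS2 stood beside 323 ± 14.9 CPM (SD, n = 6) for MEIS1, on a scale that does not correct for transcript length.

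**Figure D1:**
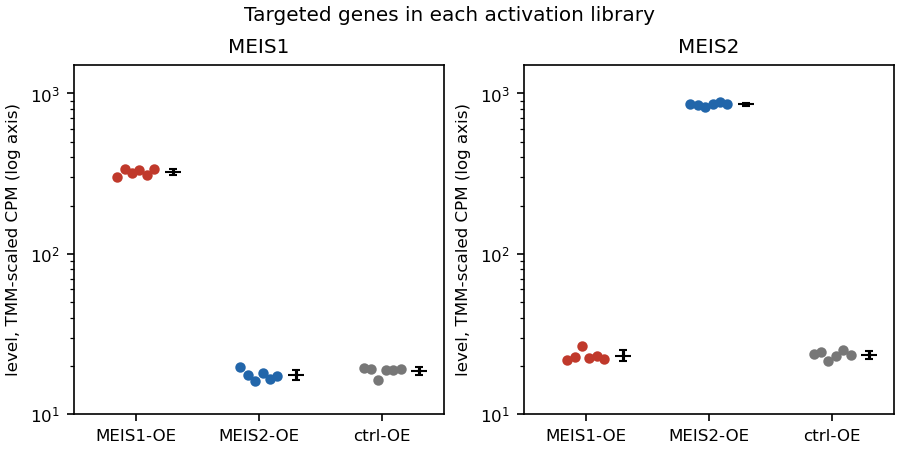
Levels of MEIS1 (left) and MEIS2 (right) in each of the 6 libraries of MEIS1-OE, MEIS2-OE and ctrl-OE, in TMM-scaled CPM on a log axis. Points are libraries, and the bar beside them is the mean with its SD. MEIS1 reached 303 to 338 CPM only in MEIS1-OE, and MEIS2 reached 829 to 887 CPM only in MEIS2-OE.

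Of the genes near the targeted promoters, MEIS1-AS3, a non-coding transcript that starts within MEIS1 sequence on the opposite strand, ranged from 0.520 to 1.02 CPM in MEIS1-OE (median 0.732) and from 0 to 0.0557 CPM in MEIS2-OE (median 0.0503). Its log2 fold change was 3.98 ± 0.36 (edgeR, adjusted p = 8.4e-07). The kit keeps strand but the strand setting of the counting is not given in the sources used here. In the annotation used here MEIS1-AS3 spans chr2:66653867-66660602 on the minus strand, so it overlaps MEIS1 only where both genes start. Reads of the antisense transcript and of MEIS1 cannot be told apart within that overlap. ETAA1, 963.9 kb from MEIS1 by start, averaged 33.9 and 34.6 CPM (log2 fold change -0.03 ± 0.08, edgeR adjusted p = 0.906). C15orf41, 521.7 kb from MEIS2, averaged 8.28 and 9.71 CPM (-0.23 ± 0.08, edgeR adjusted p = 0.115). No other tested gene with a position in that annotation started within 1000 kb of either, and 16003 of the 18320 tested genes had one.

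Across all tested genes, 371 were called higher in MEIS1-OE (2.03% of the 18320) and 119 higher in MEIS2-OE (0.650%), in all 490 (2.67%). A call required an adjusted p under 0.05 in edgeR and an absolute log2 fold change above 0.58. Genes higher in MEIS1-OE were therefore 75.7% of the calls, while the median over all tested genes was -3e-04. The typical change had a similar size on both sides, with a median log2 fold change of 1.09 among the genes higher in MEIS1-OE and of -1.19 among those higher in MEIS2-OE. Above a log2 fold change of 2 there were 83 genes on the MEIS1-OE side and 27 on the MEIS2-OE side. In 380 of the called genes (286 and 94) no library of one group reached into the range of the other, against 838 such genes (4.57%) among all tested. Without the fold threshold, the adjusted p alone passed 792 genes higher in MEIS1-OE (4.32%) and 391 higher in MEIS2-OE (2.13%). Leaving out MEIS1-OE replicate 3 gave 477 (2.60%) and 152 (0.830%) called genes, and raised the number at an adjusted p alone from 1183 to 2717.

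**Figure D2:**
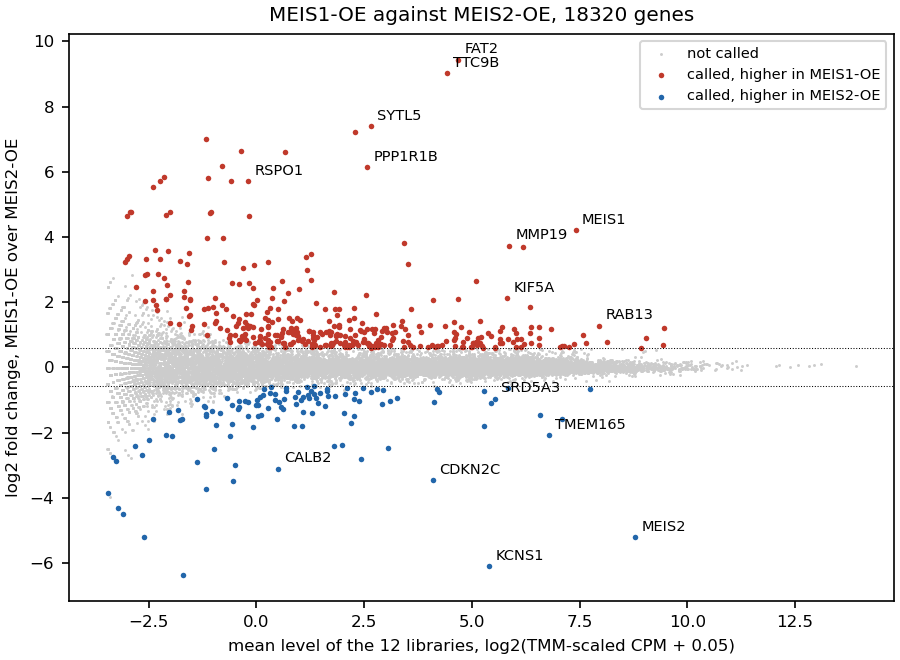
Log2 fold change of MEIS1-OE over MEIS2-OE (vertical axis) against the mean level of the 12 libraries (horizontal axis, log2 of TMM-scaled CPM plus 0.05) for 18320 genes. Each point is a gene, coloured where called (371 higher in MEIS1-OE, 119 higher in MEIS2-OE), and dotted lines mark 0.58 in either direction. FAT2 and TTC9B lie highest and KCNS1 and MEIS2 are among the lowest.

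The genes with the smallest p on the MEIS1-OE side included several that were all but silent without MEIS1 activation. FAT2, an atypical cadherin (chr5:150883653-150970892), ranged from 44 to 61.6 CPM in MEIS1-OE (median 50.3) and from 0 to 0.199 CPM in MEIS2-OE (median 0.0497). Its log2 fold change was 9.45 ± 0.20 (edgeR, adjusted p = 1.9e-15), from 6198 counts in the MEIS1-OE libraries against 8 in the MEIS2-OE libraries. TTC9B, a protein with tetratricopeptide repeats, ranged from 27.9 to 50.8 CPM (median 44.5) against 0 to 0.203 CPM (median 0.0488), with a log2 fold change of 9.03 ± 0.27 (edgeR, adjusted p = 2.1e-13). Both genes were high in all 6 MEIS1-OE libraries and at or near 0 in MEIS2-OE and in ctrl-OE, where the highest library had 0.0485 CPM of FAT2 and 0.0971 CPM of TTC9B. STK32B, a serine/threonine kinase gene, ranged from 8.58 to 13.1 CPM (median 9.10) in MEIS1-OE and from 0 to 0.0997 CPM (median 0.0534) in MEIS2-OE, with a log2 fold change of 7.22 ± 0.24 (edgeR, adjusted p = 1.1e-12). SYTL5, which encodes a synaptotagmin-like protein of vesicle transport, ranged from 9.28 to 17.1 CPM (median 12.1) against 0 to 0.111 CPM (median 0.0741), with a log2 fold change of 7.41 ± 0.26 (edgeR, adjusted p = 2.5e-12). The groups did not overlap for either gene. PPP1R1B (chr17:37782993-37792879) encodes DARPP-32, the phosphatase inhibitor through which dopamine acts in striatal neurons. It ranged from 9.26 to 14.7 CPM (median 11) in MEIS1-OE and from 0 to 0.388 CPM (median 0.126) in MEIS2-OE, with a log2 fold change of 6.14 ± 0.27 (edgeR, adjusted p = 7e-11). Over the whole table, 52 of the genes called higher in MEIS1-OE averaged under 0.1 CPM in MEIS2-OE, and 15 of those called higher in MEIS2-OE averaged under 0.1 CPM in MEIS1-OE.

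The other leading genes of the MEIS1-OE side were expressed in all activation libraries and differed in level. MMP19, a secreted matrix metalloproteinase, ranged from 88.8 to 124 CPM (median 111) in MEIS1-OE and from 7.11 to 10.1 CPM (median 7.91) in MEIS2-OE, with a log2 fold change of 3.74 ± 0.09 (edgeR, adjusted p = 1.6e-14). STAC2, an adaptor of voltage-gated calcium channels, ranged from 13.4 to 24.2 CPM (median 21.3) against 1.84 to 2.86 CPM (median 2.24), with a log2 fold change of 3.16 ± 0.14 (edgeR, adjusted p = 7.2e-11). KIF5A, the heavy chain of the neuronal kinesin-1 motor, ranged from 86.5 to 98.5 CPM (median 92.3) against 19.5 to 22.2 CPM (median 21.5), with a log2 fold change of 2.13 ± 0.06 (edgeR, adjusted p = 4.5e-14). The lowest MEIS1-OE library of each of these genes lay far above the highest MEIS2-OE library. PIANP, a neural membrane protein gene, ranged from 103 to 141 CPM (median 130) against 29.3 to 38.2 CPM (median 35.5), with a log2 fold change of 1.86 ± 0.08 (edgeR, adjusted p = 3.8e-11). RAB13, a small GTPase of vesicle and junction transport, ranged from 318 to 389 CPM (median 350) against 134 to 157 CPM (median 143), with a log2 fold change of 1.28 ± 0.05 (edgeR, adjusted p = 3.2e-11). THBS3, a secreted thrombospondin, ranged from 146 to 165 CPM (median 161) against 63.4 to 75.9 CPM (median 69.3), with a log2 fold change of 1.18 ± 0.05 (edgeR, adjusted p = 5.3e-11). These moderate differences were measured at high levels, and again no library of one group reached the other. The non-coding transcript BC033961, whose position was not found in the annotation used here, ranged from 36.6 to 45.6 CPM (median 41.3) against 8.54 to 10.9 CPM (median 9.49), with a log2 fold change of 2.10 ± 0.08 (edgeR, adjusted p = 4.2e-12).

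On the MEIS2-OE side the leading gene after MEIS2 was KCNS1, a modifier subunit of voltage-gated potassium channels (chr20:43719855-43729768). It ranged from 0.658 to 1.47 CPM in MEIS1-OE (median 1.31) and from 73.1 to 93.6 CPM in MEIS2-OE (median 83.4), with a log2 fold change of -6.11 ± 0.12 (edgeR, adjusted p = 3.1e-16). CDKN2C (chr1:51426417-51440306) encodes p18-INK4c, an inhibitor of the cyclin D kinases. It ranged from 2.23 to 3.62 CPM (median 2.89) in MEIS1-OE and from 27.6 to 34.0 CPM (median 31.7) in MEIS2-OE, with a log2 fold change of -3.46 ± 0.10 (edgeR, adjusted p = 1.4e-13). The 6 ctrl-OE libraries of CDKN2C, from 5 to 6.18 CPM, lay between both groups and overlapped neither. CALB2, the calcium-binding protein calretinin, ranged from 0.104 to 0.423 CPM (median 0.326) against 2.18 to 3.02 CPM (median 2.41), with a log2 fold change of -3.10 ± 0.22 (edgeR, adjusted p = 3e-08). PRR5, a subunit of the mTORC2 kinase complex, ranged from 0.775 to 1.56 CPM (median 1.41) against 7.33 to 13 CPM (median 8.70), with a log2 fold change of -2.81 ± 0.17 (edgeR, adjusted p = 6.1e-09). SUSD2, a membrane protein gene, ranged from 1.74 to 3.34 CPM (median 2.54) against 12.1 to 17.3 CPM (median 13.1), with a log2 fold change of -2.49 ± 0.15 (edgeR, adjusted p = 3.4e-09). All of these were separated without overlap between the activation groups.

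Further down this side, ECEL1, an endothelin-converting enzyme-like peptidase of neurons, ranged from 0.723 to 1.39 CPM (median 1.10) in MEIS1-OE and from 4.47 to 7.31 CPM (median 5.53) in MEIS2-OE, with a log2 fold change of -2.41 ± 0.17 (edgeR, adjusted p = 2.8e-08). Its ctrl-OE libraries, from 1.47 to 2.57 CPM, again lay between the groups. PRRT4, a membrane protein gene, ranged from 0.981 to 1.61 CPM (median 1.27) against 6.04 to 8.03 CPM (median 6.39), with a log2 fold change of -2.38 ± 0.12 (edgeR, adjusted p = 6e-10). PTPRU, a receptor tyrosine phosphatase, ranged from 12.8 to 20.6 CPM (median 17.7) against 51.4 to 75.7 CPM (median 56.6), with a log2 fold change of -1.80 ± 0.12 (edgeR, adjusted p = 9e-09). For PRRT4 and PTPRU the ctrl-OE libraries overlapped the MEIS1-OE libraries, and only MEIS2-OE stood above. TMEM165, a Golgi membrane protein needed for glycosylation (chr4:56262124-56319564), ranged from 39.8 to 45.0 CPM (median 42.8) against 167 to 188 CPM (median 180), with a log2 fold change of -2.07 ± 0.05 (edgeR, adjusted p = 5.2e-15). SRD5A3, a reductase that makes the dolichol carrier of glycosylation, starts 49.7 kb from TMEM165 and ranged from 29.7 to 33.2 CPM (median 31.7) against 57.6 to 65.7 CPM (median 60.5), with a log2 fold change of -0.96 ± 0.05 (edgeR, adjusted p = 1.5e-09). RASSF8, a Ras association domain gene, ranged from 61.0 to 79.4 CPM (median 65.7) against 174 to 225 CPM (median 208), with a log2 fold change of -1.58 ± 0.07 (edgeR, adjusted p = 6.8e-11). RASSF8-AS1, which overlaps its start on the opposite strand, had a log2 fold change of -1.06 ± 0.07 (edgeR, adjusted p = 1.2e-08). The pair spans chr12:26089616-26112698 (RASSF8-AS1) and 26111165-26232825 (RASSF8), and reads in the overlap cannot be told apart without the strand setting.

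**Figure D3:**
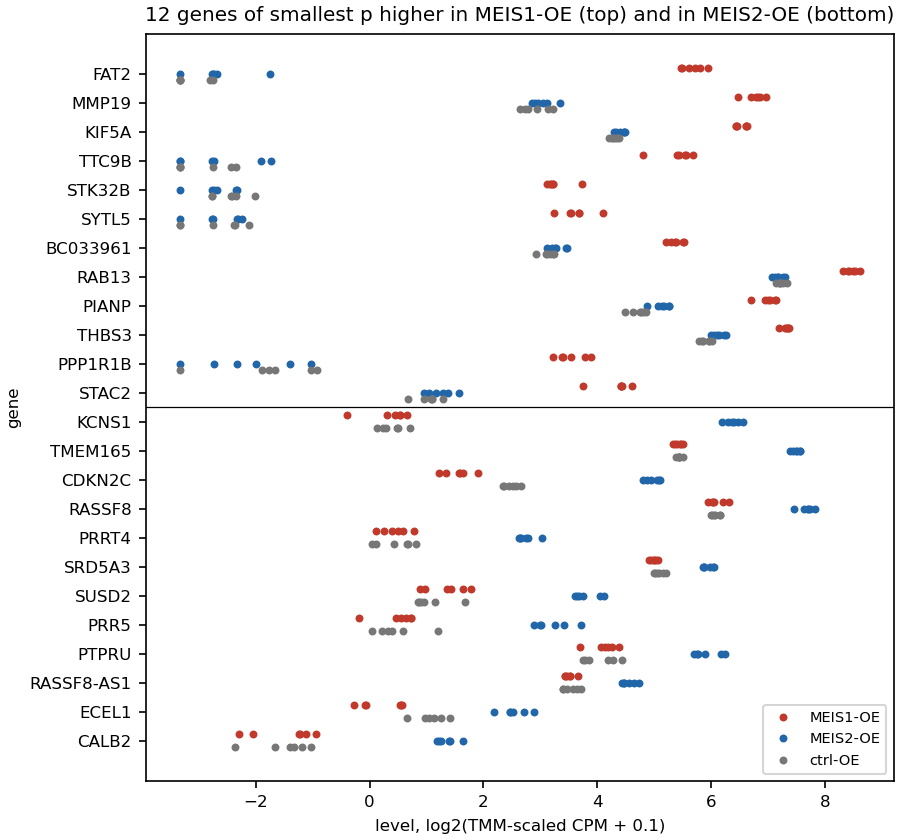
Levels (horizontal axis, log2 of TMM-scaled CPM plus 0.1) of the 12 genes with the smallest p higher in MEIS1-OE (above the line) and the 12 higher in MEIS2-OE (below it), MEIS1 and MEIS2 left out, with 1 point per library of MEIS1-OE, MEIS2-OE and ctrl-OE. FAT2, TTC9B, STK32B and SYTL5 lie near the left edge outside MEIS1-OE, and the ctrl-OE points of CDKN2C, from 5 to 6.18 CPM, lie between both activation groups.

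Where ctrl-OE lay between the activation groups is given for each direction. On a log2 scale with a pseudocount of 0.1 CPM, the ctrl-OE mean was nearer to MEIS2-OE for 360 of the 371 genes higher in MEIS1-OE and nearer to MEIS1-OE for 11. Among the 119 genes higher in MEIS2-OE, the ctrl-OE mean was nearer to MEIS1-OE for 60 and nearer to MEIS2-OE for 59. When the ctrl-OE mean was placed on a scale from 0 (the MEIS2-OE mean) to 1 (the MEIS1-OE mean), the median position was 0.04 on the MEIS1-OE side and 0.53 on the MEIS2-OE side. On the MEIS1-OE side 311 genes lay below 0.25 and 4 above 0.75, and on the MEIS2-OE side 40 lay below 0.25, 36 between and 43 above 0.75. The ctrl-OE libraries entered no fit, and these positions are descriptions without a test.

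Of the genes on the MEIS2-OE side described above, KCNS1 (0.997), TMEM165 (0.992) and PRRT4 (0.987) lay at the MEIS1-OE end of that scale. TENM3, a teneurin of synaptic adhesion, averaged 166 CPM in MEIS1-OE, 260 CPM in MEIS2-OE and 186 CPM in ctrl-OE (position 0.743). At the MEIS2-OE end, BMP8A, a ligand of the BMP family, ranged from 0.516 to 1.18 CPM (median 0.924) in MEIS1-OE, from 1.58 to 2.18 CPM (median 1.87) in MEIS2-OE and from 1.53 to 2.38 CPM (median 2.04) in ctrl-OE. It was low in MEIS1-OE alone, and its log2 fold change was -1.05 ± 0.16 (edgeR, adjusted p = 0.00041). SLITRK3, a synaptic adhesion receptor, had medians of 0.841, 1.66 and 1.5 CPM in the same order (-0.79 ± 0.21, edgeR adjusted p = 0.032), its activation groups overlapped, and its call was lost without replicate 1, 4, 5 or 6. HK2, hexokinase 2, ranged from 26.1 to 30.9 CPM (median 29.6) in MEIS1-OE, from 45.8 to 54.7 CPM (median 46.4) in MEIS2-OE and from 31.9 to 42.9 CPM (median 38.0) in ctrl-OE, which lay apart from both. Its log2 fold change was -0.73 ± 0.06 (edgeR, adjusted p = 3.1e-07).

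**Figure D4:**
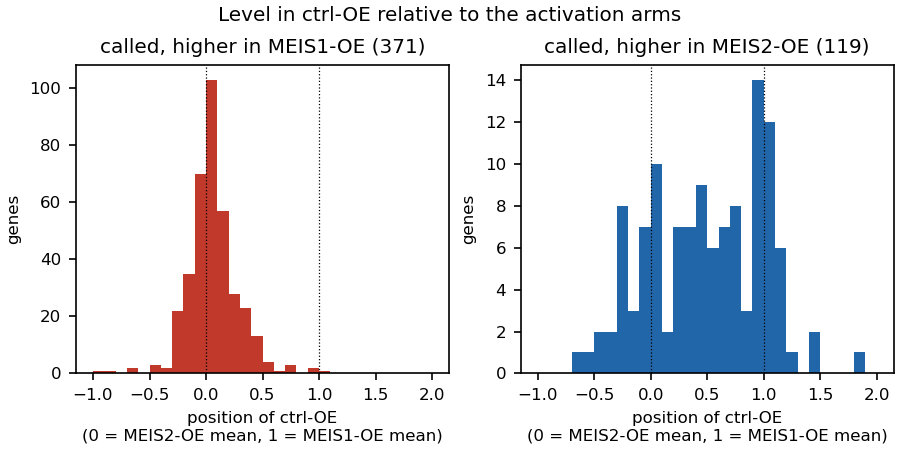
Number of called genes (vertical axis) by the position of the ctrl-OE mean between the activation groups (horizontal axis, 0 at the MEIS2-OE mean and 1 at the MEIS1-OE mean, on log2 of CPM plus 0.1). The 371 genes higher in MEIS1-OE (left) cluster near 0, with a median of 0.04, and the 119 genes higher in MEIS2-OE (right) spread from below 0 to above 1, with a median of 0.53.

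Genes of synapses and neurons were compared by list. Of 41 tested synaptic adhesion genes, 5 were called higher in MEIS1-OE and 2 higher in MEIS2-OE (17.1% of the list, against 2.67% of all genes), and the median log2 fold change was 0.07. THBS2, NRXN2, MDGA1 and NTNG1 of this list are named in the study's own text on these libraries, so the count is not independent evidence of a direction. MDGA1, a synaptic adhesion modulator, ranged from 4.08 to 6.26 CPM (median 5.43) in MEIS1-OE and from 1.35 to 2.20 CPM (median 1.84) in MEIS2-OE, with a log2 fold change of 1.60 ± 0.13 (edgeR, adjusted p = 2e-07). THBS2, thrombospondin 2, ranged from 1.40 to 2.26 CPM (median 1.76) against 0.291 to 1.02 CPM (median 0.697), with a log2 fold change of 1.39 ± 0.22 (edgeR, adjusted p = 0.00056). NRXN2, the presynaptic receptor neurexin 2, ranged from 24.4 to 43.7 CPM (median 40.7) against 12.4 to 19.2 CPM (median 16.4), with a log2 fold change of 1.24 ± 0.14 (edgeR, adjusted p = 9.1e-06). The groups of these genes did not overlap. NTNG1, netrin-G1, ranged from 1.81 to 2.40 CPM (median 2.01) against 0.437 to 1.45 CPM (median 0.904), with a log2 fold change of 1.16 ± 0.22 (edgeR, adjusted p = 0.002), also without overlap. TENM3 moved the other way, with 136 to 185 CPM in MEIS1-OE and 228 to 272 CPM in MEIS2-OE (-0.65 ± 0.07, edgeR adjusted p = 3.7e-06).

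Of 21 tested neuronal differentiation genes, 2 were called higher in MEIS1-OE and none higher in MEIS2-OE (9.52% of the list, against 2.67% of all genes), with a median of 0.10. They were KIF5A and STMN4, a stathmin of neurons, which ranged from 0.930 to 1.66 CPM (median 1.35) against 0.203 to 0.698 CPM (median 0.417), with a log2 fold change of 1.64 ± 0.25 (edgeR, adjusted p = 0.00037). NEFM, the medium neurofilament chain, passed the adjusted p of 0.0131 in edgeR but not the fold threshold, with means of 169 and 133 CPM (0.35 ± 0.08). Levels within the list were uneven: TUBB3, a neuronal tubulin, averaged 222 and 165 CPM (edgeR, adjusted p = 0.071) and the microtubule-associated MAP2 averaged 251 and 269 CPM (edgeR, adjusted p = 0.552), while DCX and STMN2 averaged at most 0.307 CPM in either group. Among 21 striatal and dopamine signalling genes only PPP1R1B was called (4.76%). PDE10A, the striatal phosphodiesterase, averaged 46.7 and 35.6 CPM (0.39 ± 0.07, edgeR adjusted p = 0.00222), under the fold threshold. Of 16 tested neural stem cell markers none was called by edgeR or DESeq2. In edgeR, 5 were higher in MEIS1-OE and 1 higher in MEIS2-OE at an unadjusted p under 0.05. Only MSI1, higher in MEIS1-OE, also passed the adjusted p (edgeR, adjusted p = 0.0262), under the fold threshold.

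Of 57 potassium channel genes, 3 were higher in MEIS1-OE and KCNS1 higher in MEIS2-OE (7.02%, against 2.67% of all genes). With GC correction there were 2 in each direction. All of the former belong to the ether-a-go-go (KCNH) family. KCNH3 ranged from 1.39 to 2.81 CPM (median 2.18) against 0.223 to 0.562 CPM (median 0.362), with a log2 fold change of 2.42 ± 0.24 (edgeR, adjusted p = 1.8e-06). KCNH2 (medians 9.12 and 5.67 CPM, log2 fold change 0.63 ± 0.14, edgeR adjusted p = 0.01) and KCNH6 (medians 0.662 and 0.193 CPM, 1.43 ± 0.40, edgeR adjusted p = 0.041) overlapped between the groups. KCNH2 lost its call where counts were corrected for GC content (log2 fold change 0.51) and without replicate 1 or 4, and KCNH6 without replicate 1, 4, 5 or 6. Of 36 neurotransmitter receptor genes 2 were called higher in MEIS1-OE (5.56%), and 1 in each direction with GC correction. Among them, GRIK5, a kainate receptor subunit, had medians of 35.5 and 21.0 CPM (0.64 ± 0.11, edgeR adjusted p = 0.00088), and was not called with the same correction (0.47) or without replicate 4. MEIS1-OE replicate 3 of GRIK5, at 23.1 CPM, lay within the range of MEIS2-OE.

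In the WNT list, of 49 tested genes only 1 was called (2.04%, near the 2.67% of all genes). This was RSPO1, a secreted R-spondin that amplifies WNT signals. It ranged from 1.24 to 2.23 CPM (median 1.63) in MEIS1-OE and from 0 to 0.167 CPM (median 0) in MEIS2-OE. Its 198 counts in MEIS1-OE against 3 in MEIS2-OE give a ratio of 65.2 (95% exact interval 22 to 319, counting error only; edgeR, adjusted p = 1.9e-07). LEF1, a transcription factor of the WNT pathway, averaged 41.2 and 30.0 CPM (0.46 ± 0.06, edgeR adjusted p = 4.62e-05), under the fold threshold.

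The Notch list had the larger share, with 2 of 28 tested genes called in each direction (14.3%, against 2.67% of all genes). HES6, an inhibitor of HES1, ranged from 20.7 to 41.4 CPM (median 37.2) against 14.4 to 24.3 CPM (median 20.9), with a log2 fold change of 0.79 ± 0.15 (edgeR, adjusted p = 0.0022). MEIS1-OE replicate 3 held the lowest HES6 level of its group and was the library that overlapped MEIS2-OE. MFNG, a fringe glycosyltransferase of Notch receptors, had medians of 2.01 and 1.14 CPM (0.75 ± 0.17, edgeR adjusted p = 0.011), and was not called without replicate 5. The Notch target genes HEYL and HEY1 were higher in MEIS2-OE. HEYL ranged from 3.13 to 4.01 CPM (median 3.53) in MEIS1-OE and from 4.51 to 7.28 CPM (median 6.24) in MEIS2-OE (-0.79 ± 0.12, edgeR adjusted p = 0.00022). HEY1 ranged from 0.752 to 1.66 CPM (median 1.32) against 2.23 to 2.61 CPM (median 2.34), with a log2 fold change of -0.91 ± 0.16 (edgeR, adjusted p = 0.00095). Neither overlapped between the groups.

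Of 49 tested BMP and TGF-beta pathway genes only BMP8A was called (2.04%, near the 2.67% of all genes). Of 38 FGF and ERK feedback genes none was called by edgeR or DESeq2, with 5 and 4 at an unadjusted p under 0.05 in edgeR. At an adjusted p alone, 1 of these genes was higher in MEIS1-OE and 1 higher in MEIS2-OE. Of 67 axon guidance genes only SEMA3G, a secreted semaphorin, was called (1.49%), with medians of 7.33 and 4.74 CPM (0.72 ± 0.09, edgeR adjusted p = 5.6e-05). The list had 5 genes higher in MEIS1-OE and 2 higher in MEIS2-OE at an adjusted p alone, among them the guidance ligand SEMA6A at means of 39.5 and 52.0 CPM (-0.40 ± 0.05, edgeR adjusted p = 9.86e-05).

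Lists of secreted and surface genes were read against the same share of 2.67% over all genes. Of 35 wound healing and coagulation genes 3 were higher in MEIS1-OE (8.57%), among them PDGFA and CD9. PDGFA, a ligand of the platelet-derived growth factor receptors, ranged from 4.5 to 6.4 CPM (median 5.49) against 1.12 to 2.45 CPM (median 1.52), with a log2 fold change of 1.78 ± 0.16 (edgeR, adjusted p = 4.4e-07). The ctrl-OE libraries of PDGFA, from 0.840 to 1.12 CPM, were at or below the lowest MEIS2-OE library. The tetraspanin CD9 had medians of 4.11 and 2.54 CPM (0.69 ± 0.13, edgeR adjusted p = 0.0028). Of 34 integrin and laminin chains 3 were called (8.82%). The integrins ITGB4 (medians 1.35 and 0.399 CPM, 1.64 ± 0.27, edgeR adjusted p = 0.00057), ITGAX (medians 1.49 and 0.756 CPM, 0.89 ± 0.18, edgeR adjusted p = 0.0043) and ITGB3 (medians 1.89 and 1.20 CPM, 0.62 ± 0.16, edgeR adjusted p = 0.027) were higher in MEIS1-OE. No laminin chain was called. The call of ITGB3 was lost without replicate 1, 2, 4, 5 or 6.

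Of 37 collagen genes, 1 was called in each direction (5.41% of the list, against 2.67% of all genes). COL8A1 was higher in MEIS1-OE (medians 2.55 and 1.28 CPM, 0.98 ± 0.16, edgeR adjusted p = 0.00059) and COL5A1 higher in MEIS2-OE (medians 0.233 and 0.558 CPM, -1.19 ± 0.30, edgeR adjusted p = 0.023). COL5A1 was not called without replicate 2, 4, 5 or 6. With GC correction the collagen list had 3 genes higher in MEIS2-OE. Of 33 inflammatory response genes 2 were higher in MEIS1-OE (6.06%). ICAM1, an adhesion receptor for leukocytes, ranged from 101 to 125 CPM (median 120) against 43.1 to 52.2 CPM (median 51.4), with a log2 fold change of 1.23 ± 0.06 (edgeR, adjusted p = 3.4e-10). IL11, a cytokine of the IL-6 family, ranged from 45.1 to 90.3 CPM (median 65.5) against 26.4 to 35.6 CPM (median 32.9), with a log2 fold change of 1.12 ± 0.13 (edgeR, adjusted p = 2.3e-05). Neither gene overlapped between the groups. Of 45 interferon-stimulated genes only PSMB8, an immunoproteasome subunit, was called (2.22% of the list), with medians of 1.44 and 0.897 CPM (0.72 ± 0.18, edgeR adjusted p = 0.024). In this list 33 genes had a positive log2 fold change, and the median was 0.13, against -3e-04 over all tested genes. The call of PSMB8 was lost without replicate 1, 2, 4 or 5.

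Of 38 hypoxia and glycolysis genes, NDRG1 and EGLN3 were higher in MEIS1-OE and HK2 higher in MEIS2-OE (7.89%, against 2.67% of all genes). NDRG1, a stress-responsive gene, ranged from 9.30 to 18.5 CPM (median 15.6) against 5.13 to 6.19 CPM (median 5.63), with a log2 fold change of 1.43 ± 0.13 (edgeR, adjusted p = 1.2e-06). EGLN3, an oxygen-sensing prolyl hydroxylase, had medians of 2.45 and 0.830 CPM (1.51 ± 0.20, edgeR adjusted p = 6.2e-05). The neuronal enolase ENO2 averaged 161 and 115 CPM (0.48 ± 0.04, edgeR adjusted p = 4.13e-07), under the fold threshold.

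In the lists of cell cycle and sterol synthesis genes, most fitted levels were slightly higher in MEIS2-OE than in MEIS1-OE. CDKN2C was the single call among 46 S phase genes (2.17%, near the 2.67% of all genes). Of 44 genes of the G2 and M phases none was called by edgeR or DESeq2, 2 had a positive log2 fold change, and the median was -0.13. At an adjusted p alone in edgeR, 3 of these 44 were higher in MEIS2-OE. At an unadjusted p under 0.05 in edgeR, 20 of these 44 were higher in MEIS2-OE and 0 higher in MEIS1-OE. The share of all tested genes at that unadjusted threshold is not given here. Counts at an unadjusted p, for this and the other lists, are therefore no comparison with all genes. The phosphatase gene CDC25C averaged 28.6 CPM in MEIS1-OE, 34.8 CPM in MEIS2-OE and 43.7 CPM in ctrl-OE (-0.28 ± 0.08, edgeR adjusted p = 0.0451). Of 34 sterol synthesis genes none was called by edgeR or DESeq2, and the median was -0.14. In edgeR, 10 were higher in MEIS2-OE at an adjusted p alone, as were 2.13% of all tested genes. At an unadjusted p under 0.05 there were 15 such sterol synthesis genes. ACAT2, an early enzyme of the pathway, averaged 232 and 286 CPM (-0.30 ± 0.05, edgeR adjusted p = 0.000533). HMGCS1, the synthase of the same pathway, averaged 612 and 716 CPM (-0.23 ± 0.06, edgeR adjusted p = 0.0426). In ctrl-OE, ACAT2 averaged 276 CPM and HMGCS1 708 CPM, both nearer to MEIS2-OE than to MEIS1-OE. Neither list held a gene higher in MEIS1-OE at an adjusted p under 0.05.

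No gene was called by edgeR or DESeq2 among 36 p53 target genes, 46 genes of the unfolded protein and integrated stress responses or 5 metallothionein genes. In edgeR, 6 and 1 of the p53 targets, 5 and 5 of the stress response genes and 1 and 0 of the metallothionein genes had an unadjusted p under 0.05 toward MEIS1-OE and MEIS2-OE. At an adjusted p alone in edgeR, 2 and 0 of the p53 targets passed, and 3 and 1 of the stress response genes. None of the metallothionein genes did. Over all tested genes, 4.32% and 2.13% passed toward MEIS1-OE and MEIS2-OE. Without MEIS1-OE replicate 3, 1 p53 target was called higher in MEIS1-OE. Over all the pathway lists, which hold 906 tested genes, 30 were called higher in MEIS1-OE and 10 higher in MEIS2-OE, where 2.03% and 0.650% of all tested genes were.

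Of 17 TALE homeobox genes besides MEIS1 and MEIS2 none was called by edgeR or DESeq2. In edgeR, 2 and 1 had an unadjusted p under 0.05, and 1 was higher in MEIS1-OE at an adjusted p alone. PBX3, a DNA-binding partner of MEIS proteins, ranged from 50.6 to 58.1 CPM (median 55.1) in MEIS1-OE and from 55.4 to 61.8 CPM (median 58.2) in MEIS2-OE, which overlapped (-0.09 ± 0.05, edgeR adjusted p = 0.45). Of 17 SOX genes none was called by edgeR or DESeq2, though GC correction gave 1 call higher in MEIS2-OE. In edgeR, 4 and 2 SOX genes had an unadjusted p under 0.05, and 1 was higher in MEIS1-OE at an adjusted p alone. Of these genes, SOX2 (medians 116 and 128 CPM, edgeR adjusted p = 0.71), SOX3 (2.39 and 2.39 CPM, edgeR adjusted p = 0.86) and SOX4 (103 and 101 CPM, edgeR adjusted p = 0.97) overlapped between the groups. Among 29 FOX genes, 1 was called in each direction (6.9% of the list, against 2.67% of all genes). FOXS1 was called higher in MEIS1-OE (medians 1.36 and 0.698 CPM, 0.80 ± 0.22, edgeR adjusted p = 0.034, not called without replicate 1, 2, 4 or 5) and FOXD1 higher in MEIS2-OE. FOXD1 ranged from 0.0516 to 0.416 CPM (median 0.306) against 0.748 to 1.30 CPM (median 0.920), with a log2 fold change of -1.72 ± 0.28 (edgeR, adjusted p = 0.00061). FOXP1 had medians of 26.6 and 28.1 CPM (edgeR, adjusted p = 0.92) and FOXP2 of 13 and 15 CPM (edgeR, adjusted p = 0.26), both with overlapping groups.

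TEAD1, a factor of the Hippo pathway, ranged from 153 to 193 CPM (median 167) in MEIS1-OE and from 213 to 242 CPM (median 230) in MEIS2-OE without overlap, with a log2 fold change of -0.41 ± 0.06 (edgeR, adjusted p = 9.3e-05) that did not reach the fold threshold. DACH1, a homologue of dachshund, ranged from 6.24 to 9.92 CPM (median 6.93) against 3.93 to 5.89 CPM (median 4.22), with a log2 fold change of 0.69 ± 0.14 (edgeR, adjusted p = 0.0032), and was not called without replicate 3. RAPGEF3, the cAMP-activated exchange factor EPAC1, ranged from 16.2 to 24.3 CPM (median 21.8) against 11.7 to 15.3 CPM (median 14.0), with a log2 fold change of 0.63 ± 0.09 (edgeR, adjusted p = 0.00029), which became 0.52 with GC correction and was not called without replicate 1 or 4. Neither SMOC1 (medians 20.7 and 22.2 CPM, edgeR adjusted p = 0.57) nor KIAA1644 (3.96 and 3.98 CPM, edgeR adjusted p = 0.96) was called, and their libraries overlapped. LHX3 had 4 counts in all MEIS1-OE libraries and 7 in all MEIS2-OE libraries, too few for a comparison, and FOXD3 did not reach the minimum of 10 counts.

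Some called genes lay near one another. Of 459 called genes with a position, 69 (15%) had the start of another called gene within 50 kb, against 732 of 16003 tested genes with a position (4.57%). They formed 42 pairs, of which 39 had the same direction, and pairs of overlapping or antisense genes are among them. The genes named in this paragraph and the next were chosen after their values were seen. On chromosome 19, KLK6, KLK7 and KLK8, secreted serine proteases of the kallikrein cluster, start within 33.0 kb of each other and were all higher in MEIS1-OE. KLK6 ranged from 5.15 to 7.40 CPM (median 6.33) against 2.12 to 2.79 CPM (median 2.32), with a log2 fold change of 1.44 ± 0.11 (edgeR, adjusted p = 9.5e-08). KLK8 ranged from 1.03 to 2.04 CPM (median 1.36) in MEIS1-OE and had 1 count in all MEIS2-OE libraries and 0 in ctrl-OE. KLK7 ranged from 0.207 to 0.676 CPM (median 0.303) in MEIS1-OE and had 0 counts in MEIS2-OE, where 3 counts over the group would be 0.0251 CPM, so it was at least 13.9-fold higher in MEIS1-OE. The near-silent KLK7 and KLK8 thus differed alongside the expressed KLK6.

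On chromosome 22, IL2RB, C1QTNF6, SSTR3, RAC2 and CYTH4 followed one another and were all higher in MEIS1-OE. SSTR3, a somatostatin receptor, ranged from 3.05 to 5.57 CPM (median 4.44) against 0.223 to 0.498 CPM (median 0.423), with a log2 fold change of 3.47 ± 0.21 (edgeR, adjusted p = 5.9e-09). IL2RB, a chain of the interleukin-2 receptor, ranged from 45.4 to 59.9 CPM (median 54.4) against 17.0 to 25.5 CPM (median 18.9), with a log2 fold change of 1.43 ± 0.09 (edgeR, adjusted p = 9.1e-09). C1QTNF6, a secreted C1q-like protein gene, ranged from 87.4 to 123 CPM (median 114) against 48.8 to 57.8 CPM (median 52.6), with a log2 fold change of 1.07 ± 0.07 (edgeR, adjusted p = 1.4e-08). The ctrl-OE medians, 0.547, 19.3 and 52.7 CPM in that order, lay near those of MEIS2-OE. RAC2, a small GTPase, had medians of 2.46 and 1.16 CPM (1.03 ± 0.18, edgeR adjusted p = 0.00099), and CYTH4 had 33 counts in MEIS1-OE against 2 in MEIS2-OE.

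The promoters were searched for the letters of the MEIS core. RefSeq windows of 300 bases on GRCh38.p14 (250 before and 50 after each gene start) were matched by symbol for 12577 of the 18320 tested genes, with several starts for some. TGACAG on either strand was found in 58 of 359 windows of genes called higher in MEIS1-OE (16.2%), in 17 of 123 windows of genes called higher in MEIS2-OE (13.8%) and in 2557 of all 18263 windows (14.0%). The composite of PBX and MEIS proteins, which is TGAT directly followed by that core, was found in 2 of the 359, 1 of the 123 and 38 of the 18263 windows (0.557%, 0.813% and 0.208%). A match is a description of the letters and not a site of binding. The called genes with the composite before a start are described above, THBS2 on the MEIS1-OE side and PRRT4 on the MEIS2-OE side, and CDKN2C held the core before 2 of its 3 starts. They are shown because they join a named difference to a match, with the matched letters in capitals and all stretches read 5′ to 3′ on the strand of the gene.
THBS2, chr6:169253872-169253931, minus strand, match 60 bases before the start: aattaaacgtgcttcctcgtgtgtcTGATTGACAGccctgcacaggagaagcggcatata
PRRT4, chr7:128361851-128361910, minus strand, match 195 bases before the start: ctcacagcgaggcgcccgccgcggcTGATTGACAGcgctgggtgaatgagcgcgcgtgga
CDKN2C, chr1:50960648-50960707, plus strand, first match 70 bases before the start: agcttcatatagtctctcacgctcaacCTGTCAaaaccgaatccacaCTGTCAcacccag
The CDKN2C stretch holds the core on the opposite strand, CTGTCA, at both places in capitals. Of the 26 targeted and leading genes, 17 had a promoter window, and 2, CDKN2C and PRRT4, held TGACAG in the 250 bases before a start. No match was found for MEIS1, MEIS2, FAT2, TTC9B or TMEM165, though a gene without a window also gives none.

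The knockout libraries, none of which belongs to an activation group, were used to compare the same genes after each paralog was cut. MEIS1-KO against MEIS2-KO called 3 genes (0.0164% of the 18320), of which 1 was higher in MEIS1-KO (0.00546%) and 2 were higher in MEIS2-KO (0.0109%). At an adjusted p alone there were 4 (0.0218%), and 834 had an unadjusted p under 0.05 in edgeR. Of the 490 genes called between the activation groups only MEIS1 and MEIS2 themselves were called between the knockouts. MEIS1 ranged from 6.85 to 11.7 CPM (median 9.45) in MEIS1-KO and from 22.4 to 26.0 CPM (median 24.5) in MEIS2-KO, a log2 fold change of -1.35 ± 0.08 (edgeR, adjusted p = 1.1e-11). The MEIS2 level ranged from 23.2 to 26.8 CPM (median 24.4) against 11.3 to 14.5 CPM (median 13.1), a log2 fold change of 0.93 ± 0.05 (edgeR, adjusted p = 1.1e-11). Each transcript was thus lowest where its own gene was cut, and the knockouts differed in these transcripts by less than the activations did. MEIS1 and MEIS2 carried opposite signs in the activation and knockout contrasts.

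Other leading genes were not called between the knockouts. CDKN2C had a knockout log2 fold change of 0.32 ± 0.10 (edgeR, adjusted p = 0.97), and TMEM165 and KIF5A had 0.02 and 0.15 (edgeR, adjusted p = 0.98 and 0.97). Of the 371 genes higher in MEIS1-OE, 246 (66.3%) had a lower fitted level in MEIS1-KO than in MEIS2-KO at any p, against 46.3% of all tested genes. Of the 119 genes higher in MEIS2-OE, 63 (52.9%) were lower in MEIS2-KO, against 53.4% of all tested genes. The difference between the activation contrast and the knockout contrast was tested by an interaction term, which called 357 genes (1.95%). They included 226 of the 371 and 49 of the 119 called genes. The interaction contains the activation difference by which these genes were called. Neither this overlap nor the interaction p of the leading genes is therefore independent of those calls. Leaving out replicate 4 lowered the 357 to 219. FAT2 had only 1 count in MEIS1-KO and 5 in MEIS2-KO, so the size of its interaction is not given. The interaction was 1.98 for KIF5A (edgeR, adjusted p = 1.1e-15), -2.09 for TMEM165 (edgeR, adjusted p = 5.1e-19) and -3.77 for CDKN2C (edgeR, adjusted p = 1.1e-16). For MFNG the estimates were alike, with 0.75 between the activations and 0.72 ± 0.20 between the knockouts. The knockout difference was not called (edgeR, adjusted p = 0.97), and the activation call was lost without replicate 5. The interaction was 0.03 (edgeR, adjusted p = 0.97).

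**Figure D5:**
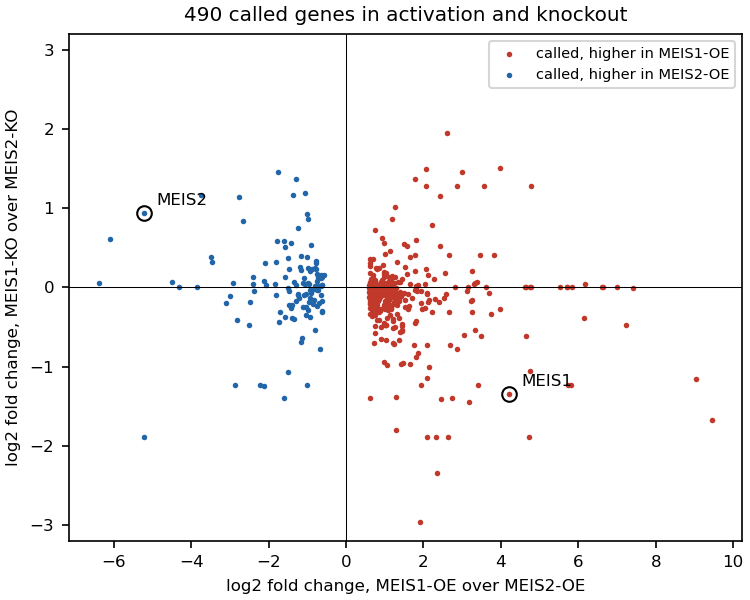
Log2 fold change of MEIS1-KO over MEIS2-KO (vertical axis) against log2 fold change of MEIS1-OE over MEIS2-OE (horizontal axis) for the 490 genes called between the activation groups, coloured by direction. Each point is a gene, and circles mark MEIS1 (4.2 and -1.35) and MEIS2 (-5.21 and 0.93), the only genes called in both contrasts.

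GC content moved with the called genes as well as with the libraries. The longest transcript of the genes called higher in MEIS1-OE had a median GC content of 57.2% and that of the genes called higher in MEIS2-OE of 52.3%, against 48.6% over the tested genes (values for 93.7% of the called and 87.4% of the tested genes). Correcting each library for its trend with GC content gave 366 genes higher in MEIS1-OE and 162 higher in MEIS2-OE, and 341 and 118 of these were among the 371 and 119 genes called without it. Of the named genes only RAPGEF3, KCNH2 and GRIK5 lost their call under this correction. The part of GC content in the remaining differences was not tested.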

How the data were processed

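Poly-A RNA of hNSC was sequenced in 36 libraries, in paired-end mode with a stranded kit. The deposited values are raw counts per gene, which the authors made with STAR and HTSeq on hg19. The submitters' processing notes name STAR 2.7.0a and Trimmomatic 0.39, whereas the study's methods give an earlier STAR version, and which one made the counts was not settled here. The annotation and the strand setting of the counting are not given in the sources used here. Every column was matched to its sample by name. Genes with at least 10 counts over the 12 activation libraries were fitted with edgeR 4.0.16 in R 4.3.3 (TMM scaling, quasi-likelihood test, Benjamini-Hochberg adjustment, prior count 0.125), without ctrl-OE. Genes were called at an adjusted p below 0.05 if the log2 fold change also passed 0.58 in either direction. The knockout contrast and the interaction came from 1 fit of 24 libraries. The fits were tested on simulated data. DESeq2 1.42.0, other filters and scalings, a replicate block and left-out replicates were alternatives. The alternatives without MEIS1-OE replicate 3 and with GC correction (a spline of 6 degrees of freedom per library) were added after seeing the data.

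Positions and GC content came from the GENCODE annotation of GRCh37, the same build as hg19, by symbol for 20387 genes and by an older symbol for 1548, while 6266 were not matched and 315 had several positions. Genes were named by a rule: the targeted genes, the 12 called genes with the smallest p in each direction, genes the study's text names, up to 4 called members of each list in each direction, and neighbours of the targeted genes with an adjusted p under 0.05. NEFM, TUBB3, MAP2, DCX, STMN2, PDE10A, LEF1, SEMA6A, ENO2, CDC25C, ACAT2, HMGCS1 and the markers fall outside the rule and were chosen after their values were seen. The comparison, the gene lists and the tests were chosen with earlier results of these data known. Within groups, pairs of libraries differed with a chi-square per degree of freedom of 4.15 to 30.9 in MEIS1-OE and 3.23 to 18.7 in MEIS2-OE, so no library was counted as a copy of another. Intervals and floors cover counting error only. The files also hold ctrl-KO libraries, which entered only the alternative fit of all 36. Some genes that the rule names are not reported here.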

Additional observations from a re-analysis of the deposited data

Results flagged for a closer look

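In groups of 6 libraries, 13 of 152 values examined stood so far from the rest that the gap to the nearest library passed Dixon's 95% critical value, where chance gives about 1 in 20 groups. Of these, 8 belonged to MEIS1-OE replicate 3. One was its slope of expression on GC content, -0.234 log2 units per 10 percentage points, against 0.057 in the next library. That library also held the lowest levels of its group for the calcium channel adaptor STAC2 (13.4 CPM, next 21.3), the mTORC2 subunit PRR5 (0.775, next 1.28), the HES1 inhibitor HES6 (20.7, next 35.9) and the kainate receptor subunit GRIK5 (23.1, next 33.7). It held the highest levels of its group for MEIS2 (26.8 CPM, next 23), RASSF8-AS1 (12.5, next 11.3) and FOXP2 (17.4, next 13.3).

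The remaining 5 values came from other libraries. STK32B reached 13.1 CPM in MEIS1-OE replicate 4 (next 9.26). In MEIS2-OE, FAT2 reached 0.199 CPM in replicate 3 (next 0.0557), RSPO1 reached 0.167 CPM in replicate 4 where the others had 0, PRRT4 reached 8.03 CPM in replicate 6 (next 6.75), and MEIS1-AS3 had 0 in replicate 2 (next 0.0466). The values of FAT2, RSPO1 and MEIS1-AS3 rest on a few counts.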

How the results depend on the processing

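Under every alternative run, 0 of the 490 called genes reversed. RLE scaling, both other filters, a prior count of 2, all 36 libraries in one fit and DESeq2 gave 325 to 400 genes higher in MEIS1-OE and 93 to 135 higher in MEIS2-OE (DESeq2 362 and 115, of which 352 and 109 were among the calls reported). An adjusted p alone gave 792 and 391. Leaving out each replicate number in turn gave 301 to 428 and 89 to 137. The count of genes whose activation and knockout contrasts differed ranged from 219 (without replicate 4) to 490 (without replicate 3). The knockout contrast called 2 to 4 genes under all its alternatives. Of 64 named calls, 63 or 64 were kept under the alternatives above that keep all libraries (1 gene did not pass filterByExpr), and 54 to 63 when a replicate number was left out. Genes not called changed sign as follows, and the cause was not tested. KIAA1644 was -0.02 with GC offsets, -0.08 without MEIS1-OE replicate 3, -0.14 with both, and -0.09 to 0.1 with a replicate left out. SOX4 was -0.02, -0.05 and -0.1 in that order, and -0.06 to 0.07 with a replicate left out. FOXP1 was -0.04 without MEIS1-OE replicate 3 and -0.05 to 0.05, and SOX3 -0.27 to 0.08, with a replicate left out.

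The replicate block gave 379 and 120 called genes (356 and 112 among those reported), 361 for the difference of contrasts and 3 between the knockouts, and changed no named call. The replicate numbers share no stated source. Libraries with the same number correlated at 0.0598 to 0.152 in their deviations over all tested genes (3 of 6 pairs above 0.1) and at 0.0995 to 0.495 over genes above 1 on the log2 CPM scale (5 of 6 pairs above 0.1). Of 12 libraries 6 correlated best with their own number, a hint from the data and not from the design. Since not every pair passed 0.1 on either set, the fit without the block was kept as the one reported. That rule does not show that the replicate numbers are unrelated. With the block 1463 genes passed an adjusted p alone in edgeR, against 1183 without it.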
